A study of Mus musculus with 4 samples.

Results

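Genes that mark Purkinje cells and granule cells of the cerebellum were followed on 4 Affymetrix mouse arrays, each hybridised with material amplified from central nervous system total RNA (brain, hindbrain and spinal cord). There were 2 cDNA arrays, whose target was amplified with a Nugen kit, and 2 aRNA arrays, whose target came from T7-based amplification. Each preparation has an array numbered 1 and an array numbered 0, called N1 and N0 for cDNA and R1 and R0 for aRNA. Strain, age, sex, number of animals and treatment are not given in the sources used here, nor is what the numbers stand for, nor whether both preparations started from the same RNA.

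Of 10 genes proposed, 8 were measured, by 19 of the 45037 probe sets that are not controls. A probe set pools several short probes into 1 reading of a transcript, and each was taken when the platform annotation gave it 1 of the gene symbols alone. Pcp2 (3 probe sets), Calb1 (4) and Car8 (3) stand for Purkinje cells. Cbln1 (3), Neurod1 (2), Zic1 (2) and Zic2 (1) stand for granule cells, and En2 (1) for the territory from which the cerebellum forms. Itpr1 was not analysed here, and Etv1 was not either because its 3 probe sets are listed with a second gene. The genes were chosen on values of these same arrays, with the cDNA against aRNA contrast and the contrasts between array numbers in view. Both comparisons are therefore descriptions, and no p-value of a member is given. Counts of limma calls stand only beside the share called over all probe sets.

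Purkinje cells are the large inhibitory neurons whose axons are the sole output of the cerebellar cortex, and they are rich in calcium-handling proteins. Granule cells are small excitatory neurons, the most numerous of the cerebellum, whose parallel fibres synapse on Purkinje cell dendrites. Cbln1, released by granule cells, helps to form and keep these synapses. The En and Zic transcription factors act while the cerebellum is laid out and stay on in its granule cells.

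The stretch before the annotated start of transcription is shown for Pcp2, Neurod1 and Zic1. These are the 3 of the 8 measured genes found in the RefSeq promoter table (GRCm38.p6). Each stretch is 250 bases, 5′ to 3′ on the gene's strand. Capitals mark CANNTG, the letters of an E-box, to which factors such as Neurod1 bind, and AGGTCA, the half-site of nuclear receptors such as Rora, searched on both strands. The 2 motifs did not overlap in these windows.
Pcp2 (chr8:3625548-3625797, minus strand): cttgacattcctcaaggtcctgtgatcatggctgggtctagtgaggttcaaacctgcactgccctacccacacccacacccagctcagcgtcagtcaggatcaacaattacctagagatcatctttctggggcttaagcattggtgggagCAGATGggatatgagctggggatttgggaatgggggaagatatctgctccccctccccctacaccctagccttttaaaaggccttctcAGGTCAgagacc
Neurod1 (chr2:79456637-79456886, minus strand): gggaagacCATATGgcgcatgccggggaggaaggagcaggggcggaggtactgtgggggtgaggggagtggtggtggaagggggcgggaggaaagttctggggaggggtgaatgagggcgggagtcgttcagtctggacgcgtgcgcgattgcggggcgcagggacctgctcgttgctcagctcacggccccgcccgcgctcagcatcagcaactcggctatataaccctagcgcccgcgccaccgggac
Zic1 (chr9:91365769-91366018, minus strand): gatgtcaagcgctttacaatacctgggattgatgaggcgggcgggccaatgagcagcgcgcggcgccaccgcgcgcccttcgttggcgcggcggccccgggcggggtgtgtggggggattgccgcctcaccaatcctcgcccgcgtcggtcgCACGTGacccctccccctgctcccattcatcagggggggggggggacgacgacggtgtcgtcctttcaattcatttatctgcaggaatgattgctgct
An E-box occurred 1 time in each of the 3 windows, and 66.2% of all 32851 windows of this length hold at least 1. AGGTCA lay 12 to 7 bases before the start of Pcp2 and was not found in the other windows, against 14% of all windows. The Pcp2 window had 52.8% G and C, near the median window (52.4%), while those of Neurod1 (67.6%) and Zic1 (66.0%) were richer. These matches describe letters, not sites in use.

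Values below are log2(intensity + 16), and differences are on that scale. For dim probe sets a fold on this scale is too small. The deposited intensity had an equal trimmed mean on the 4 arrays (2500.02), and the number of arrays, 2 a group, limits the precision. The background level, the 95th percentile of 27 control probe sets for Bacillus transcripts, was 8.05 on cDNA array 1 and 7.83 on cDNA array 0, against 7.15 on aRNA array 1 and 7.12 on aRNA array 0. Where a value lay under it, a fold is given as a lower bound, with such values raised to the level. The aRNA array 0 stood apart in sex-linked transcripts: the Y-linked gene Eif2s3y read 13.12 there at 1417210_at and at most 7.92 on the other arrays, and Xist was lowest there at each of its 3 probe sets. R0 and R1 thus differed in sex-linked transcripts, so their spread is not between copies of 1 RNA. For N1 and N0 no source used here says whether the RNA was separate, and their spread may be technical. In bulk RNA fewer cells of a type and less RNA per cell cannot be told apart.

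Cerebellar genes read far higher with cDNA target than with aRNA target. At 16 of the 19 probe sets both cDNA arrays lay above both aRNA arrays, as at 31.0% of all probe sets that are not controls and 34.1% of those tested. In 14 of the 16 both cDNA arrays were also above background. The reverse order held at none of the 19 and at 39.7% of those tested. Of the 19, 14 passed a filter at the median mean level, and limma (Benjamini-Hochberg adjusted p under 0.05 over the 22519 probe sets tested) called 13 higher and none lower. Of all tested probe sets 20.2% were called higher and 22.9% lower. The 5 left out by the filter were 3 of Calb1 and 2 of Car8. Since this contrast was in view when the genes were proposed, these counts describe the list, do not test it and support nothing. Of the 14, 7 had an aRNA mean under the filter level and passed through the cDNA arrays, where they were high. Without aRNA array 0 the median difference of the 14 was 4.57, against 4.20 with all arrays. Over all tested probe sets the median difference was −0.11.

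**Figure D1:**
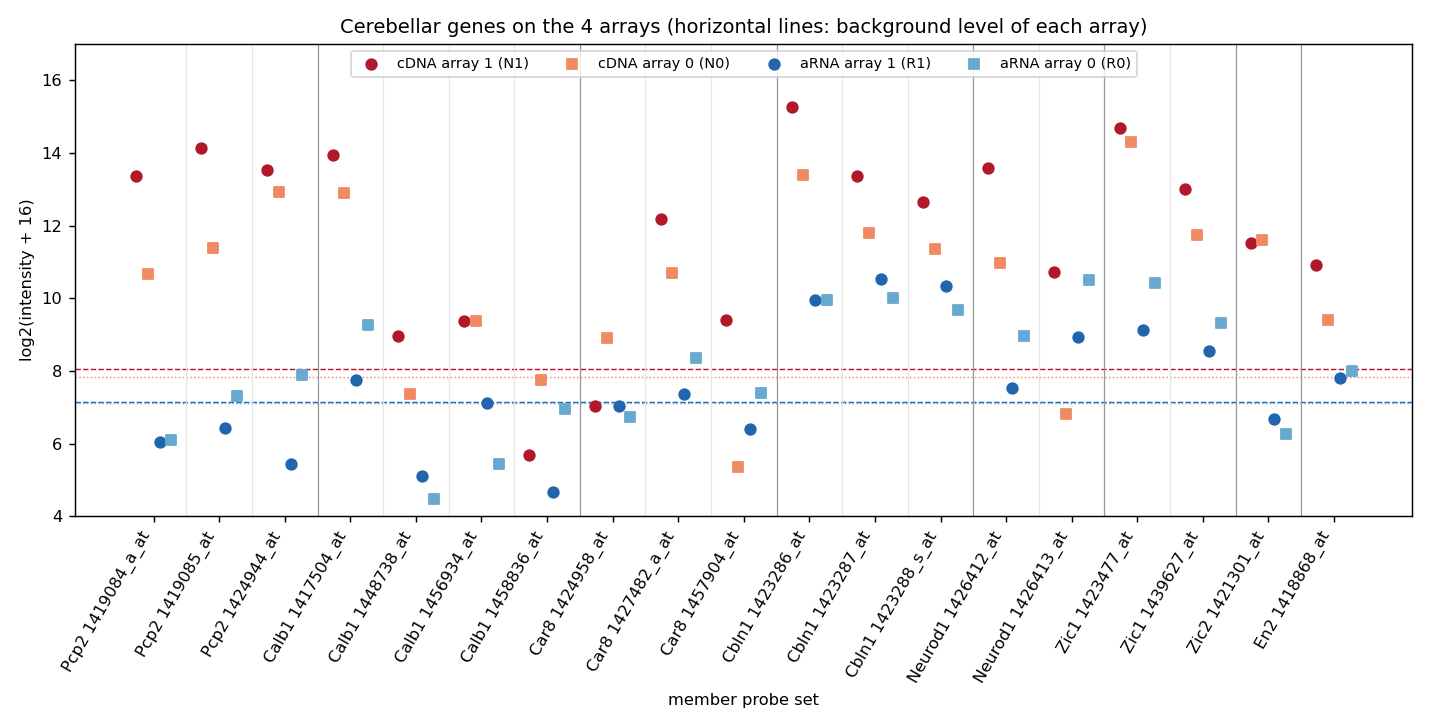
Values of the 19 cerebellar probe sets on each of the 4 arrays, as log2(intensity + 16), with 1 point per array and horizontal lines at the background level of each array (dashed for number 1, dotted for number 0, in the colour of the array). At 16 probe sets both cDNA arrays lie above both aRNA arrays, and cDNA array 1 is above cDNA array 0 at 16.

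Pcp2, a modulator of G protein signalling confined in the brain largely to Purkinje cells, was far above background on both cDNA arrays at all 3 of its probe sets. At 1419085_at it read 14.15 on cDNA array 1 and 11.37 on cDNA array 0, against 6.43 on aRNA array 1 and 7.31 on aRNA array 0. At 1419084_a_at the values were 13.36 on cDNA array 1 and 10.67 on cDNA array 0, against 6.05 and 6.09 on aRNA arrays 1 and 0, both under background. At 1424944_at they were 13.53 on cDNA array 1 and 12.92 on cDNA array 0, against 5.44 and 7.87 on aRNA arrays 1 and 0. Each aRNA array lay under background at 1 or more of the probe sets, so the differences cannot be ranked. As lower bounds, Pcp2 was at least 46.2-fold higher on cDNA at 1419085_at and at least 29.4-fold at 1419084_a_at. The means were 12.76 ± 1.96 on cDNA and 6.87 ± 0.63 on aRNA at the first of these, and 12.01 ± 1.90 on cDNA and 6.07 ± 0.03 on aRNA at the second (SD, n = 2 each).

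Calb1 encodes calbindin, a calcium buffer that fills Purkinje cells and also occurs in other neurons, such as those of striatum and hippocampus. Its brightest probe set, 1417504_at, read 13.94 on cDNA array 1 and 12.88 on cDNA array 0, against 7.74 on aRNA array 1 and 9.28 on aRNA array 0. All 4 arrays were above background there, and the difference was 4.91, or 30.0-fold (means 13.41 ± 0.75 on cDNA and 8.51 ± 1.09 on aRNA, SD, n = 2 each). The dimmer 1456934_at gave 9.37 and 9.36 on cDNA arrays 1 and 0, while both aRNA arrays were under background (7.12 and 5.44), a difference of at least 4.71-fold. At 1448738_at only cDNA array 1 (8.97) was above background, and at 1458836_at none of the 4 arrays was. The probe sets of Calb1 therefore differed in what they could show: 1 gave a measured fold, 1 a bound, and 2 no firm value.

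Car8 encodes a protein of the carbonic anhydrase family without enzyme activity that binds the inositol trisphosphate receptor and is abundant in Purkinje cells. At 1427482_a_at it read 12.18 on cDNA array 1 and 10.70 on cDNA array 0, against 7.37 on aRNA array 1 and 8.36 on aRNA array 0. This is a difference of 3.58, or 11.9-fold, with no overlap between the preparations and every array above background. The other Car8 probe sets were near background. At 1424958_at only cDNA array 0 (8.91) was above background, so the order of cDNA array 1 and the aRNA arrays cannot be read there, and at 1457904_at only cDNA array 1 (9.41) and aRNA array 0 (7.38) were, so the preparations overlapped.

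Among the granule cell genes, Cbln1 was above background on every array at all 3 probe sets. At 1423286_at it read 15.26 on cDNA array 1 and 13.39 on cDNA array 0, against 9.94 on aRNA array 1 and 9.96 on aRNA array 0. At 1423287_at it read 13.38 on cDNA array 1 and 11.78 on cDNA array 0, against 10.53 and 10.01 on aRNA arrays 1 and 0. The third, 1423288_s_at, had 12.65 and 11.35 on N1 and N0, against 10.33 on R1 and 9.68 on R0. Direction was shared while size was not: the differences were 4.38, 2.31 and 1.99, that is 20.8-fold, 4.96-fold and 3.98-fold. The 2 aRNA arrays were nearly equal at 1423286_at (9.95 ± 0.01, SD, n = 2), and the 2 cDNA arrays were not (14.33 ± 1.32, SD, n = 2).

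Neurod1, a basic helix-loop-helix factor needed for granule cells to survive and mature, separated the preparations at 1 of its 2 probe sets. At 1426412_at it read 13.58 on cDNA array 1 and 10.96 on cDNA array 0, against 7.52 on aRNA array 1 and 8.96 on aRNA array 0, a difference of 4.03 with no overlap. At 1426413_at it read 10.72 on cDNA array 1 and 6.82 on cDNA array 0, which is under background, against 8.92 on aRNA array 1 and 10.50 on aRNA array 0. Here the aRNA arrays lay between the cDNA arrays, so the preparations overlapped, and the difference of −0.94 (−0.43 with that value raised to background) was within the spread of the cDNA arrays (SD 2.76, n = 2). This was the only tested probe set of the 14 that limma did not call. Its direction rests on cDNA array 0: without that array the difference was 1.01.

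Zic1 and Zic2 encode zinc finger factors of granule cell precursors and granule cells, which are also made in meninges and dorsal spinal cord. Zic1 read 14.70 on cDNA array 1 and 14.30 on cDNA array 0 at 1423477_at, against 9.11 on aRNA array 1 and 10.43 on aRNA array 0. At 1439627_at it read 13.01 on cDNA array 1 and 11.74 on cDNA array 0, against 8.55 on aRNA array 1 and 9.31 on aRNA array 0. Both probe sets separated the preparations, by 4.73 (26.5-fold) and 3.44 (10.9-fold). Zic2 at 1421301_at was 11.53 on cDNA array 1 and 11.60 on cDNA array 0, and was below background on R1 (6.68) and R0 (6.25), at least 21.6-fold higher on cDNA. It was the only measured granule gene under background on an entire preparation.

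En2, a homeobox factor of the midbrain-hindbrain boundary that persists in granule cells, read 10.91 on cDNA array 1 and 9.41 on cDNA array 0, against 7.81 on aRNA array 1 and 7.997 on aRNA array 0. The preparations did not overlap, with a difference of 2.26, or 4.77-fold (means 10.16 ± 1.06 on cDNA and 7.90 ± 0.13 on aRNA, SD, n = 2 each). En2 was no longer called without cDNA array 1, where its difference was 1.51.

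**Figure D2:**
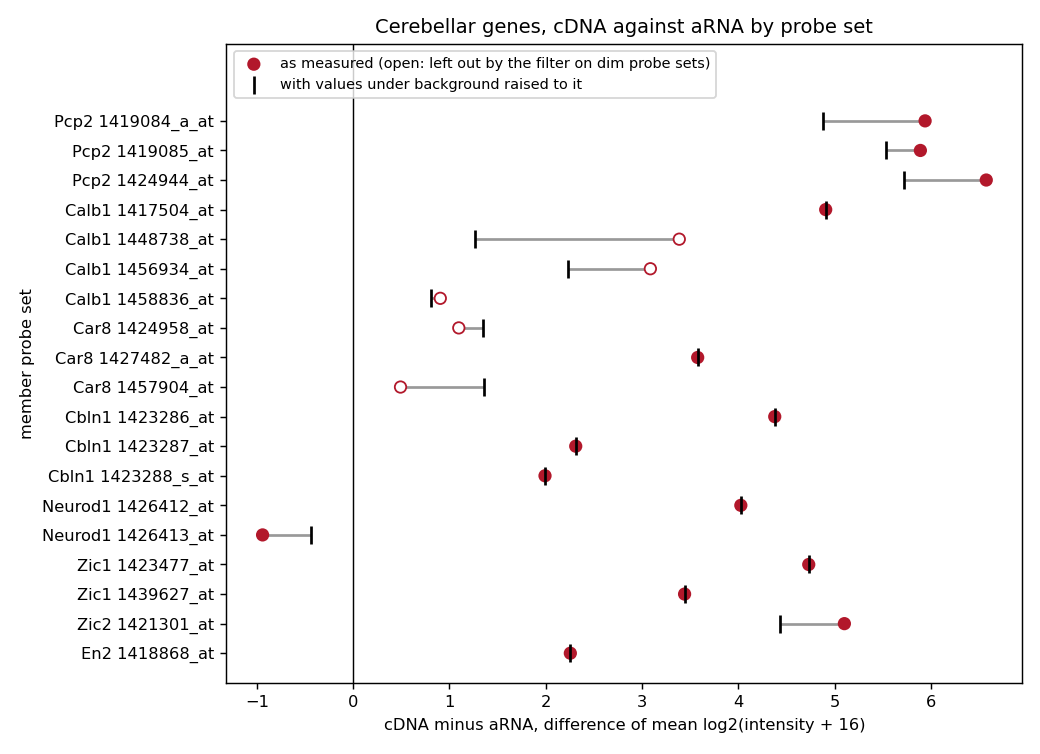
Difference of the mean log2(intensity + 16), cDNA minus aRNA, for each of the 19 cerebellar probe sets. Points are the values as measured (open where the filter left the probe set out), and black ticks, joined to them by grey lines, are the values with levels under background raised to it; 18 of the 19 points lie above 0 and Neurod1 1426413_at lies below.

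Other genes of these cells were taken from lists of cell type markers, with 1 probe set per gene, the one with the highest mean. Of 20 further Purkinje genes 13 were tested, of which 8 were called higher and 1 lower on cDNA (median difference 1.65). Of 19 further granule cell genes 11 were tested, of which 6 were called higher and none lower (median 1.17). Over all probe sets tested 20.2% were called higher and 22.9% lower, with a median of −0.11. These lists too were chosen with earlier results of these data known, so their counts are a description. Both list medians were smaller than those of the members, which had been proposed for this contrast. The member medians were 4.91 over the 3 Purkinje genes and 4.55 over the 4 granule genes, at 1 probe set each. Gabra6, a GABA receptor subunit typical of granule cells, read 14.78 on cDNA array 1 and 11.76 on cDNA array 0, against 7.68 on aRNA array 1 and 7.33 on aRNA array 0. Cbln3, a partner of Cbln1, read 13.64 and 10.43 on N1 and N0, against 8.10 on R1 and 8.51 on R0 at 1455445_at. Both genes were called higher on cDNA. The second probe set of each was left out by the filter: Gabra6 1451706_a_at was above background only on N1 (9.77), and Cbln3 1422911_at read 9.69 on N1 and 8.04 on N0, against 7.49 on R1 and 6.78 on R0.

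Among further Purkinje genes, Pcp4, a calmodulin-binding peptide also abundant in striatum and thalamus, read 14.87 on both cDNA arrays, against 14.14 on aRNA array 1 and 14.70 on aRNA array 0, and was not called. Slc1a6, the glutamate transporter of Purkinje cell spines, was called higher: it read 10.20 and 10.67 on N1 and N0, against 7.76 on R1 and 8.49 on R0. Rora, a nuclear receptor that Purkinje cells need in order to develop, had 6 tested probe sets, of which 1 was called higher (1455165_at, 1.18), 1 lower (1424034_at, −1.69) and 4 neither. The other 3 of Rora were left out by the filter. Among these, 1441085_at read 11.30 and 9.50 on N1 and N0, with both aRNA arrays under background. That is at least 9.62-fold higher on cDNA. By contrast, 1424035_at was above background only on R1 (7.28). At 1458145_at N1 was under background, while N0 read 7.99, R1 8.17 and R0 8.855. Pax6, a transcription factor of granule cells, had 5 probe sets, all left out by the filter, with differences of −1.08 to 1.63 as measured. The lowest, at 1456342_at, rested on N1 under background and was 0.20 with that value raised to it. At 1425960_s_at and 1452526_a_at every array was under background. Only 1419271_at (1.18) was above background on every array. The 1 probe set of Fat2, a protocadherin of granule cells, was above background only on cDNA array 1 (8.33). Pax2 was not analysed here.

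Lists of neighbouring territories and cells are small, and their counts are read against the 20.2% called higher and 22.9% called lower over all probe sets tested. Of 15 patterning genes 3 were tested, of which none were called higher and 2 lower, one of them Meis1 at 1450992_a_at (8.89 and 8.68 on N1 and N0, against 11.08 on R1 and 11.23 on R0). Meis1 was not called at 1443260_at (−0.27), and 1459423_at was left out by the filter. En1, the paralogue of En2, read 8.99 and 8.27 on N1 and N0 and was below background on R1 (6.85) and R0 (5.23). Of 9 Bergmann glia genes 7 were tested, with 1 called higher and 2 lower (median −0.60), near those shares. Gdf10, a growth factor of Bergmann glia, was left out by the filter, with 10.41 and 9.01 on cDNA arrays 1 and 0 and both aRNA arrays under background. Of 8 genes of cerebellar interneurons and unipolar brush cells 4 were tested, with none called higher and 1 lower (median 0.22), too few to set against them.

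Markers of other sources of the same transcripts were read alongside. Of 11 meningeal genes, relevant to Zic1 and Zic2, 9 were called higher on cDNA and 1, Dcn, lower (median 3.05). Their summed intensity was 41689 and 80109 on N1 and N0, against 24631 on R1 and 44492 on R0. Dcn alone made up most of the aRNA sums (14.26 on R1 and 15.28 on R0), so these do not describe the list. Of 10 forebrain genes, relevant to Calb1 and Neurod1, 3 were tested and 2 called higher (median 2.34). The 8 forebrain genes with a probe set were above background at 5 on N1 and 3 on N0, against 3 on R1 and 5 on R0. Of the 9 Hox genes of spinal cord and caudal hindbrain with a probe set, 3 were above background on N1 and 3 on N0, against 2 on R1 and 4 on R0, with the 1 tested not called (−0.07). The part of these cells in the values of the cerebellar genes was not tested.

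The other comparison sets the arrays numbered 1 against those numbered 0. On the cDNA arrays nearly all cerebellar genes were higher on N1, and on the aRNA arrays most were level or lower on R1. R0 is the array that stood apart in sex-linked transcripts, so that difference goes with every R1 minus R0 value, and its part in them was not tested. N1 lay above N0 at 16 of the 19 probe sets, against 50.5% of all probe sets that are not controls. At 13 of the 19 the gap was at least 2-fold upward, against 16%, and at 2 it was at least 2-fold downward, against 15.7%. R1 lay above R0 at 6 of the 19, against 49.2%, with 1 at least 2-fold higher and 6 at least 2-fold lower, against 10.8% and 10.5%. Of the probe sets tested, 7.48% were at least 2-fold lower on N1, 49.6% were higher on R1, 4.66% at least 2-fold higher and 3.93% at least 2-fold lower. At 12 of the 19 N1 was above N0 and R1 below R0, against 25.3% of all probe sets and 23.8% of those tested. Both at once by at least 2-fold occurred at 3 tested cerebellar probe sets, against 0.426%. Each of these contrasts is 1 array against 1, with no replicate and no test, and probe sets of 1 gene are not independent. Both contrasts are named in the rule that set the members, so the counts describe the list.

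With 1 array well above background and the other under it, the order can be read, but the gap is only a bound. Only probe sets above background on both arrays give a measured gap. On the cDNA arrays these were 14, of which 13 were higher on N1, 10 of them at least 2-fold, with a median N1 minus N0 of 1.39. Of the 23871 probe sets above background on both cDNA arrays, 50.4% were higher on N1 and 5.26% at least 2-fold higher (median 0.006). On the aRNA arrays they were 10, of which 8 were lower on R1, 4 of them at least 2-fold, with a median R1 minus R0 of −0.88. Of the 28924 probe sets above background on both aRNA arrays, 50.5% were lower on R1 and 3.54% at least 2-fold lower (median −0.007).

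**Figure D3:**
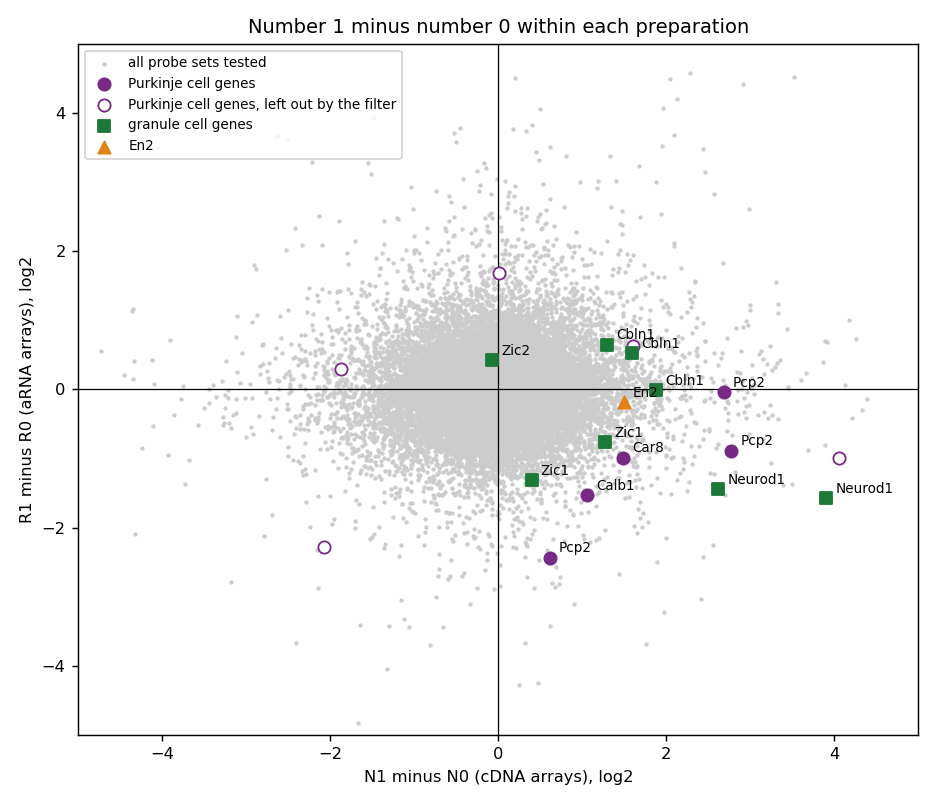
For each probe set, N1 minus N0 on the cDNA arrays (horizontal axis) and R1 minus R0 on the aRNA arrays (vertical axis), both in log2 units. Cerebellar probe sets are coloured by cell type (open where the filter left them out) over all probe sets tested in grey, of which 13 lie beyond the axis limit of 5; 12 of the 19 cerebellar ones fall at lower right, higher on N1 and lower on R1.

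Pcp2 differed between N1 and N0 by an amount that depended on the probe set: N1 was 6.84-fold above N0 at 1419085_at, 6.44-fold at 1419084_a_at and 1.53-fold at 1424944_at. On the aRNA arrays Pcp2 was under background on R1 at all 3 probe sets. Calb1 at 1417504_at was 2.08-fold higher on N1 than on N0, and R1 minus R0 was −1.54. Car8 at 1427482_a_at was 2.80-fold higher on N1, with R1 minus R0 at −0.99. All 5 tested Purkinje probe sets were thus above N0 on N1, by 0.61 to 2.77. Those left out by the filter were mixed. Calb1 1456934_at, above background on N1 and N0, was level (0.01). With values raised to background, Car8 1424958_at was lower on N1 (−0.87), and Calb1 1448738_at (1.14) and Car8 1457904_at (1.58) were higher. Calb1 1458836_at was under background on every array.

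The granule genes split. Cbln1 was higher on N1 than on N0 at all 3 probe sets (3.66-fold, 3.02-fold and 2.45-fold), and its R1 minus R0 was −0.02, 0.53 and 0.65. Neurod1 at 1426412_at was 6.14-fold higher on N1, and R1 minus R0 was −1.45. Zic1 differed less between the cDNA arrays, by 1.32-fold at 1423477_at and 2.41-fold at 1439627_at, and was lower on R1 by −1.32 and −0.77. Zic2 did not follow the others on cDNA (N1 minus N0 −0.07), and En2 was 2.82-fold higher on N1 with R1 minus R0 at −0.19. The meningeal genes, relevant to both Zic genes, were lower on N1 than on N0 in 10 of 11 (median −0.98). Their part in the Zic values was not tested.

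With preparation as a term, limma called none of the 14 tested probe sets between the numbers, where 14 of 22519 (0.0622%) were called in all. The genes were chosen with the contrasts between the numbers in view, so this count describes the list and tests nothing. For Cbln1 number 1 minus number 0 was 0.93 at 1423286_at, 1.06 at 1423287_at and 0.97 at 1423288_s_at, all probe sets of 1 gene. At 2 of these probe sets number 1 was the higher in both preparations. The additive model has 1 residual degree of freedom. Whether the number acts differently in the 2 preparations cannot be tested with 1 array in each cell of the design.

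Further granule cell genes were mostly higher on N1 as well. Of the 11 tested, 9 were higher on N1 than on N0, 4 of them at least 2-fold, against 48.7% and 5.97% of all probe sets tested, with a median of 0.58. Gabra6 was higher on N1 by 3.02 and Cbln3 by 3.21, while R1 minus R0 was 0.35 and −0.41. None of the 11 differed by 2-fold between the aRNA arrays (range −0.85 to 0.44). Of the 13 further Purkinje genes tested, 8 were higher on N1 and 2 of them at least 2-fold (median 0.19), and 3 were higher on R1 (median −0.56). All 7 tested Bergmann glia genes were higher on N1 (median 0.86), and 4 of the 7 were higher on R1 (median 0.45). None of the tested list genes was called between the numbers by limma. At an unadjusted limma p under 0.05 there were 1 of 13 Purkinje, 1 of 11 granule and 3 of 7 Bergmann glia genes. There were also 1 of 4 interneuron and unipolar brush cell, 1 of 3 forebrain and 4 of 11 meningeal genes. Of the patterning genes there were 0 of 3, and of the spinal cord genes 0 of 1. The share over all probe sets tested was 5.86%. The lists were chosen with earlier results known, so these counts describe them and test nothing.

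**Figure D4:**
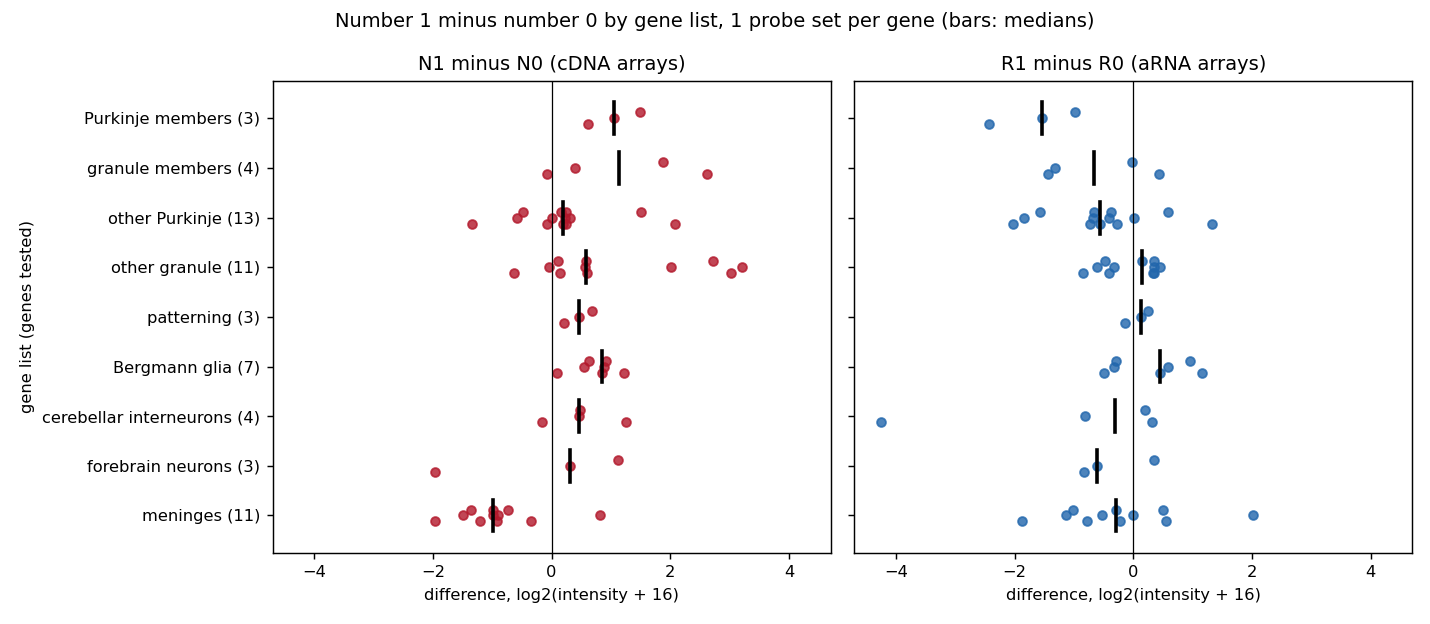
Number 1 minus number 0 in log2 units for each tested gene of the lists, within the cDNA arrays (left panel) and within the aRNA arrays (right panel). Points are genes at 1 probe set each and black bars are medians; the granule members have medians of 1.13 and −0.67, and the meningeal genes −0.98 and −0.29.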

How the data were processed

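Target from mouse brain, hindbrain and spinal cord was measured on 4 arrays, 2 per preparation. The authors deposited each probe set's linear intensity, which the files show to be scaled to an equal 2% trimmed mean on every array. The labels and files used here do not state the software, and a difference in total signal cannot be seen. Gene symbols came from the platform annotation, updated through a RefSeq gene table that held 34741 of 34945 probe sets with 1 symbol (99.4%). Those with several symbols stayed unnamed.

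Values were taken as log2(intensity + 16). The 64 control probe sets were left out, and probe sets with a mean at or above the median (8.38) were tested with limma 3.58.1 in R 4.3.3 (lmFit, eBayes with intensity trend, Benjamini-Hochberg over 22519). Fits were checked on simulated data. cDNA was compared with aRNA with no other term, and number 1 with number 0 with preparation as a term. Alternatives covered pseudocount, filter, scaling, background and single arrays. Every cerebellar probe set is described; of the context lists, a fixed few genes are named whatever their values, and 1 of them is not reported here. The members and lists were chosen with earlier results of these data known. Plots used Python 3.11.15 and matplotlib 3.10.9.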

Additional observations from a re-analysis of the deposited data

Results flagged for a closer look

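At 3 probe sets the arrays of the 2 preparations moved in opposite directions between the numbers, each by at least 2-fold, with the brighter array of each pair above background. These were Calb1 1417504_at, where N1 minus N0 exceeded R1 minus R0 by 2.60 on the log2 scale, Neurod1 1426412_at (4.07) and Neurod1 1426413_at (5.48). The difference was not tested, since each direction rests on 1 array against 1. Of all probe sets tested, 0.426% were at least 2-fold higher on N1 than on N0 and at least 2-fold lower on R1 than on R0. At Neurod1 1426413_at, N0 lay under background, and N1 minus N0 was 3.90 as measured and 2.89 with that value raised to it.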

How the results depend on the processing

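Of the 14 tested cerebellar probe sets, 13 were called higher on cDNA with median centring, quantile normalization, a pseudocount of 1 or 64, no intensity trend, or values raised to background. Under these settings 8492 to 10041 of the 22519 probe sets were called in either direction, 39.5% to 47.4% of them higher. Without a filter 15 of all 19 cerebellar probe sets were called higher, where 9541 of 45037 were called in either direction. Without probe sets named _x_at or _s_at it was 12 of the 13 left, where 8293 of 19367 were called in either direction. A filter at the 75th percentile left 5 of the 14 to be tested, and all 5 were called higher. There 6454 of 11260 probe sets were called in either direction, against 9722 of 22519 in the main fit. With 1 array left out at a time the median difference of the 14 was 3.138 to 4.996, lowest without cDNA array 1. Without cDNA array 0, Neurod1 1426413_at turned to 1.01, and without cDNA array 1 it was called lower (−2.89). Between the numbers no cerebellar probe set was called by limma under any alternative. The median of number 1 minus number 0 was 0.62 over the 14, with 1.49 within the cDNA arrays alone and −0.82 within the aRNA arrays alone. For Zic2 1421301_at number 1 minus number 0 turned to −0.022 with values raised to background. Over all probe sets, the 14 calls between the numbers became 8 with median centring, 9 with a pseudocount of 64, 7 without _x_at and _s_at, 24 with values raised to background, 28 without a filter and 58 with quantile normalization. They became 0 in limma without an intensity trend (1101 at an unadjusted p under 0.05) and 0 without a preparation term (47).

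The labels give both preparations the numbers 0 and 1, and nothing says that a number marks shared RNA. N0 and R0 differed in sex-linked transcripts. Eif2s3y at 1417210_at read 7.92 on N0 and 13.12 on R0, and Xist at 1427262_at read 12.33 on N0 and 5.25 on R0. A replicate block by number thus pairs number 0 arrays that were unlike in these transcripts. The deviations of same-numbered arrays correlated at 0.041 over the tested probe sets. With the number as a replicate block, 13 cerebellar probe sets were again called higher on cDNA, with a median of 4.20, and 10245 of all probe sets were called.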

Other observations

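A few further cerebellar genes are given here, chosen after their values were seen. Ppp1r17, a phosphatase inhibitor known as a Purkinje cell substrate of cGMP-dependent kinase, read 13.23 on cDNA array 1 and 11.15 on cDNA array 0 and was below background on R1 (4.603) and R0 (5.28), at least 33.2-fold higher on cDNA. Lhx1, a LIM homeobox factor of Purkinje cells, read 11.09 and 9.04 on N1 and N0, against 4.62 on R1 and 7.26 on R0, and was left out by the filter.

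Neurod2, a relative of Neurod1, was higher on N1 (11.69) than on N0 (8.97), while R1 and R0 read 8.25 and 8.86. Grin2c, the NMDA receptor subunit of mature granule cells, read 11.06 on N1 and 9.06 on N0, against 9.20 on R1 and 9.06 on R0, so that 3 of its 4 arrays were alike. Neither gene was called by limma between the preparations or between the numbers. Both were chosen after their values were seen, so this describes them and tests nothing.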
